A study of Drosophila melanogaster with 10 samples.

Results

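The sodium-potassium pump of the fly was followed through its 5 subunit genes, the catalytic alpha subunits *Atpalpha* and *JYalpha* and the beta subunits *nrv1*, *nrv2* and *nrv3* (nervana 1 to 3). They were picked by gene symbol out of 17747 gene identifiers in the count tables. The choice was made with earlier results for *nrv2* in these libraries known, so the changes of the 5 genes between groups are given as a description. Counts of these genes past a threshold are printed beside the share of all genes, and nothing is read from them.

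TRAP-seq measures mRNA bound to ribosomes that carry the tagged ribosomal protein GFP-RpL10a, which was expressed under the control of the *dTH-Gal4* driver, intended for dopaminergic (DA) neurons. The PARIS WT flies carried *dTH-Gal4*, the tagged ribosomal protein and human PARIS, a zinc finger repressor linked to Parkinson's disease. The PARIS C571A flies carried the same driver and tag with the C571A mutant of PARIS, which was used as a transcriptionally inactive form, and the TRAP control flies carried the driver and tag without PARIS. There were 3 libraries in each of these groups, made from 1500 heads per library in PARIS WT, against 500 in PARIS C571A and 500 in TRAP control, so the number of heads and the WT transgene cannot be told apart. The single library named whole brain held total mRNA of whole heads of *w1118* flies without these transgenes. Both sexes were mixed in every group, and the age was day 30 by the sample labels but 2 days after eclosion by the methods. The 9 TRAP libraries held 8819116 to 50102982 counts each and the whole brain library 11619907. Of the DA neuron markers, *ple*, which encodes the first enzyme of dopamine synthesis, was at 0 in 2 of the 9 TRAP libraries and the dopamine transporter gene *DAT* in 6 of them.

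The pump exports sodium ions and imports potassium ions at the cost of ATP, and so maintains the gradients on which action potentials and most secondary transport depend. The alpha subunit binds the ions and splits ATP, while the beta subunit is a glycoprotein that carries the alpha subunit to the plasma membrane. In *Drosophila*, *Atpalpha* provides the alpha subunit of most tissues and *JYalpha* is a testis form needed for sperm motility. Among the beta subunits, *nrv3* is known as a neuronal form, *nrv2* is strongly expressed in glia, where its regulatory sequence is used as a driver, and *nrv2* together with *Atpalpha* also has a role at septate junctions.

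The 5 genes lie apart from each other except for *nrv1* and *nrv2*, which are neighbours. In the BDGP6.54 annotation *Atpalpha* (FBgn0002921) spans 20948714 to 20976239 on the plus strand of 3R with 11 annotated transcripts. *JYalpha* (FBgn0267363) spans 879 to 5039 on the plus strand of chromosome 4. On the minus strand of 2L, *nrv1* (FBgn0015776) spans 6778555 to 6786861 and *nrv2* (FBgn0015777) spans 6789770 to 6798862, with 2 and 6 transcripts. On the plus strand of 2L, *nrv3* (FBgn0032946) spans 21380000 to 21393319 with 4 transcripts. No subunit gene overlapped another gene, transposable elements left aside, and 0 of the stretches of 50 bases in their exons recurred in the exons of another gene.

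The sequences directly upstream of *nrv2* and *nrv3* are shown because these genes were at opposite ends of the comparison of TRAP control with whole brain. Each run holds the 250 bases before the outermost annotated start of the gene, read 5′ to 3′ on the strand of the gene from the release 6 genome. Capitals mark matches, on either strand, to TATTTTT, the core of the oligonucleotide called the old motif in the study's binding assay for human PARIS.
nrv2, chr2L:6798863-6799112, minus strand: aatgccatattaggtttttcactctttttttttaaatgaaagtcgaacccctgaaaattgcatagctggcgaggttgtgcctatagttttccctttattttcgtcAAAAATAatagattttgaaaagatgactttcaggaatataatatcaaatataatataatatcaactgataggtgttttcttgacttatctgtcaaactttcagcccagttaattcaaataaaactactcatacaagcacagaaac
nrv3, chr2L:21379750-21379999, plus strand: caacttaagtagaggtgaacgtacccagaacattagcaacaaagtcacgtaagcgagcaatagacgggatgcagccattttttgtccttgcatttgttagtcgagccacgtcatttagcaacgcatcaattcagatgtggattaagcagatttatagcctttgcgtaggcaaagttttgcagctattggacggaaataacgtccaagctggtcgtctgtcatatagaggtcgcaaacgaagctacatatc
The *nrv2* sequence held 1 match, starting at position −145 from the gene start, and the *nrv3* sequence held 0. *JYalpha* had 1 match, at −113, and *Atpalpha* and *nrv1* had 0. Of 13826 protein-coding genes, 29.6% held the motif in the same window. The G and C content was 30.4% upstream of *nrv2* and 43.6% upstream of *nrv3*.

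The beta subunit mRNAs of the TRAP libraries were mostly *nrv3*, while in whole brain *nrv2* had the largest share of the 3. Levels of different genes were compared as CPM, counts relative to the total of a library scaled by the trimmed mean of M-values (TMM), per kb of merged exons. On this scale *nrv3* made up 87.5%, 89.3% and 85.5% of the summed beta mRNA in the 3 PARIS WT libraries. Its share was 83.7%, 89.1% and 85.4% in PARIS C571A and 84.7%, 90.2% and 87.2% in TRAP control. In whole brain it was 32.7%, below all 9 TRAP libraries, whose groups overlapped.

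The share of *nrv2* was the smaller complement of this. It was 7.14%, 6.86% and 10.1% in PARIS WT, 9.83%, 10.9% and 10.3% in PARIS C571A and 5.85%, 5.35% and 8.45% in TRAP control, against 44.0% in whole brain. All 3 PARIS C571A libraries lay above all 3 TRAP control libraries in this share, and PARIS WT overlapped with both. *nrv1* averaged 4.52% ± 0.77 in PARIS WT, 3.59% ± 3.30 in PARIS C571A and 6.04% ± 2.92 in TRAP control (SD, n = 3 each) and was 23.3% in whole brain. With the length of the longest transcript in place of merged exons, *nrv2* was 50.9% and *nrv3* 29.0% of the whole brain total, so the order stayed as it was.

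**Figure D1:**
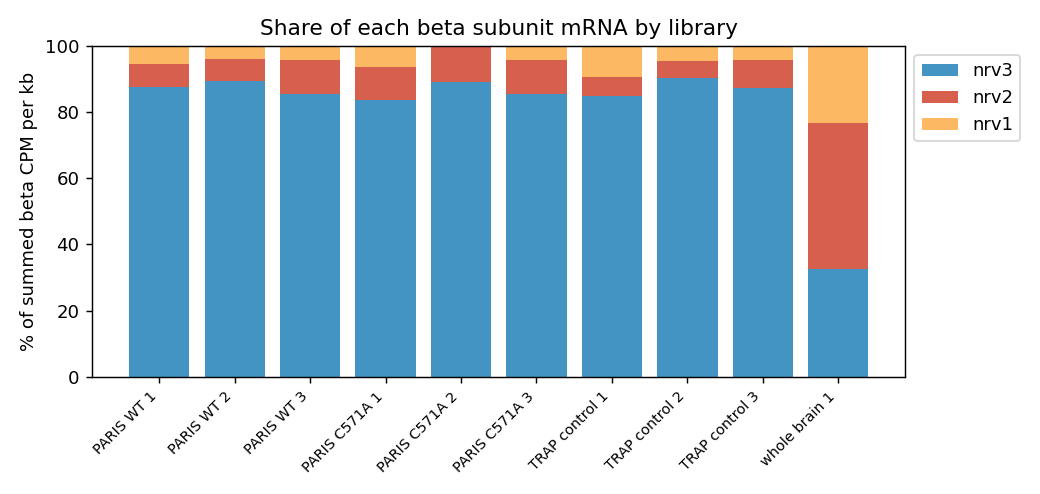
Share of *nrv3*, *nrv2* and *nrv1* in their summed CPM per kb of merged exons (y axis, percent) in each of the 10 libraries (x axis). *nrv3* fills 83.7% to 90.2% of each TRAP library and 32.7% of the whole brain library.

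Between TRAP control and whole brain, *nrv3* was higher in TRAP control while *nrv2* and *nrv1* were lower. In CPM on the scale of these 4 libraries, *nrv3* had 838, 828 and 649 in TRAP control, against 378 in whole brain, a mean log2 ratio of 1.02 ± 0.21 (SD, n = 3). *nrv2* had 43.3, 36.7 and 47.0 CPM in TRAP control, against 381 in whole brain, a mean log2 ratio of −3.18 ± 0.18. *nrv1* had 42.8, 18.6 and 14.7 CPM in TRAP control, against 124 in whole brain, a mean log2 ratio of −2.45 ± 0.81. The direction was the same in all 3 TRAP control libraries for each of these beta subunits, while whole brain has a single library and thus no replicate check. Of the genes with a mean of at least 50 counts in this table, 15.8% had a ratio below −2, as *nrv1* and *nrv2* had, and 21.2% had a ratio above 1, as *nrv3* had. In bulk material, fewer cells of a type and less RNA per cell cannot be told apart.

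The alpha subunit gave no uniform direction. *Atpalpha* had 1257, 280 and 1096 CPM in TRAP control, against 585 in whole brain, with log2 ratios of 1.10, −1.06 and 0.91 for the 3 libraries. Its mean log2 ratio of 0.32 ± 1.20 was −0.078 without TRAP control replicate 1. The spread between replicates was larger than the mean difference. *JYalpha* had 0, 8 and 0 counts in TRAP control and 8 in whole brain, too few for a ratio.

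The scaling decided the sign for *nrv3* but not its place among the genes. The median log2 ratio of all 14480 genes with counts was −0.45 with TMM and −1.44 with library size alone. With library size alone *nrv3* was at −0.088 and *Atpalpha* at −0.79, both below 0, and *nrv2* was at −4.28. Relative to the median of all genes, *nrv3* was at 1.47 with TMM and 1.36 with library size alone, and *nrv2* at −2.72 and −2.84. Ribosomal RNA genes held 20.0% to 29.1% of the counts in TRAP control and 3.13% in whole brain. Genes of the mitochondrial genome held 19.2% to 38.9% in TRAP control and 0.954% in whole brain. The part of these shares in the difference between scalings was not tested.

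Of the cell type markers in this comparison, *nrv3* had the sign of the genes of neurons in general. *nrv2* and *nrv1* had that of most glia genes, a sign not particular to glia. It was also that of 10 of 10 muscle genes, 5 of 6 fat body genes and 8 of 11 photoreceptor genes. Of 23 testis genes 18 had the sign of *nrv3*. All 10 genes of neurons in general had ratios above 0, with a median of 1.56, and their summed level was 2247 to 2853 CPM in TRAP control and 687 in whole brain. The other neuron lists were mixed. Of 5 DA neuron genes 2 were above 0, with a median of −0.58 beside −0.45 for all genes. *ple* was at 0 in 1 TRAP control library and *DAT* in 2, which lowers their mean log2 ratios. The summed level of the 5 DA neuron genes was 502 to 698 CPM in TRAP control and 323 in whole brain. Of the 9 non-DA neuron genes, 5 were above 0, with a median of 0.18. Of 9 glia genes, 8 were below 0 and the list median was −2.62. The exception was *Gs2*, the glutamine synthetase gene and the highest of the list, at 0.75, and the summed glia level was 878 to 916 CPM in TRAP control and 1209 in whole brain. The glia markers *repo* and *wrapper* were at 0 in 1 TRAP control library each. The part of cell type content in the pump values was not tested.

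Among the other ion transport genes, the sodium channel list was the one wholly above 0. All 8 of its members had positive ratios, with a median of 2.26, among them the voltage-gated sodium channel gene *para* at 2.56 ± 0.27 and the related channel gene *NaCP60E* at 2.91 ± 0.17 (SD, n = 3 each). Of 9 cation exchangers and cotransporters, 4 were above 0, led by the potassium-dependent sodium-calcium exchanger gene *Nckx30C* at 2.80 ± 0.40. Of 5 other ion pumps, which include the calcium pumps, 1 was above 0, the copper pump gene *ATP7*, which had 341, 348 and 0 counts in TRAP control and 0 in whole brain and is given without a ratio. Of 17 septate junction genes 6 were above 0, and the list median of −0.52 was close to the −0.45 of all genes.

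**Figure D2:**
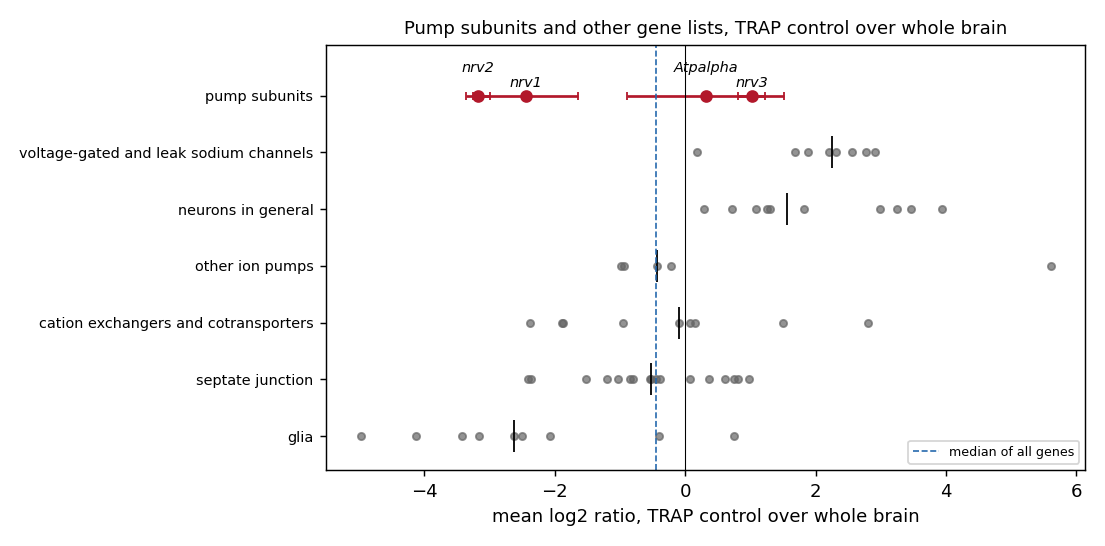
Mean log2 ratio to whole brain in TRAP control (x axis) for 4 pump subunit genes, with SD over 3 TRAP control libraries, and for the genes of 6 other lists (grey points, with a black bar at the list median). The dashed line is the median of all genes, −0.45. *nrv2* and *nrv1* lie on the side of most glia genes while *nrv3* lies among the neuron genes. Muscle, fat body and photoreceptor genes, mostly below 0 as well, and testis genes, mostly above 0, are not drawn.

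Across the TRAP groups the catalytic subunit *Atpalpha* was set by the table its counts were taken from. In the tables that include TRAP control it had 19945, 3349 and 5017 counts in the PARIS WT libraries, 7598, 5629 and 35745 in PARIS C571A and 19794, 4716 and 12192 in TRAP control. In the table of PARIS WT and PARIS C571A alone, the same libraries had 19945, 14432 and 24119 counts in PARIS WT and 32439, 27019 and 35745 in PARIS C571A. The counts thus differed in 4 of 6 libraries, by 4.27 to 4.81 times, and were equal in PARIS WT replicate 1 and PARIS C571A replicate 3. Other counts were found for 761 of 17691 genes between these tables, *Atpalpha* was sixth by summed difference, and the other pump subunits were the same in both. The cause of the difference was not tested.

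Set against the beta subunits, the alpha mRNA varied between libraries and between tables. The ratio of *Atpalpha* to the summed beta subunits, both as CPM per kb, was 0.950, 0.237 and 0.224 in PARIS WT in the tables with TRAP control. It was 0.225, 0.215 and 0.673 in PARIS C571A, 0.908, 0.218 and 1.05 in TRAP control and 0.361 in whole brain. In the table of PARIS WT and PARIS C571A alone the ratio was 0.950, 1.02 and 1.08 in PARIS WT and 0.963, 1.03 and 0.673 in PARIS C571A. The low value of TRAP control replicate 2 lay in the range of the 4 libraries whose counts differed between tables, and for that library no second set of counts was at hand.

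**Figure D3:**
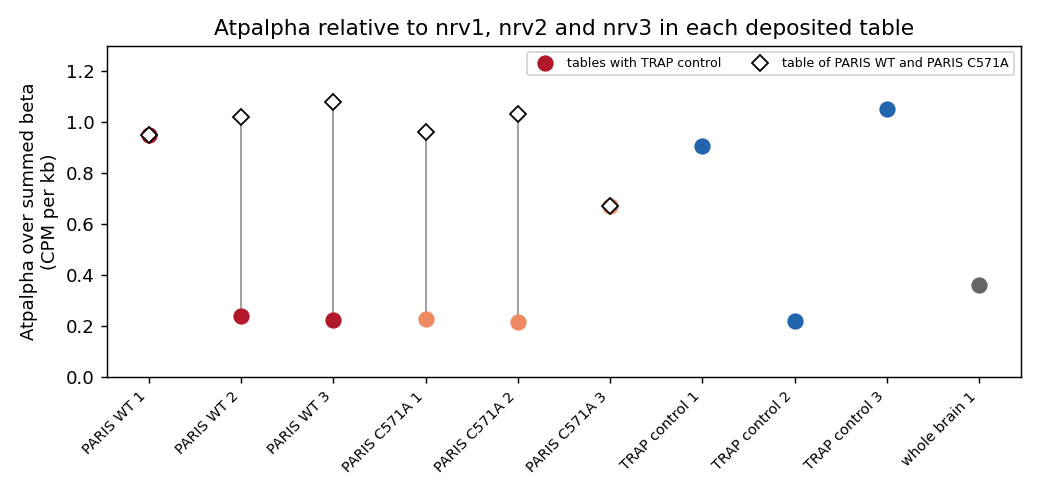
Ratio of *Atpalpha* to the sum of *nrv1*, *nrv2* and *nrv3* (y axis, both as CPM per kb) in each library (x axis), from the tables with TRAP control (filled circles, colored by group) and from the table of PARIS WT and PARIS C571A (open diamonds). Grey lines join the values of 4 libraries that differ between tables, where 0.215 to 0.237 stands against 0.963 to 1.08.

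With the counts of its own table, *Atpalpha* was nearly equal in PARIS WT and PARIS C571A. It had 1077, 1130 and 1169 CPM in PARIS WT and 1263, 1270 and 924 CPM in PARIS C571A, and its log2 fold change was −0.034 (standard error 0.13). With the counts of the 3-group table the value was 0.093, and it was 0.035 without PARIS C571A replicate 1 and 0.037 without PARIS C571A replicate 2. Against TRAP control the log2 fold change was −0.46 (0.77) in PARIS WT and −0.51 (0.69) in PARIS C571A, on the counts of the tables with the lower values. The groups overlapped in all 3 comparisons, and against TRAP control the value ran between −1.53 and −0.11 in PARIS WT and between −1.33 and −0.16 in PARIS C571A when 1 library was left out. The lowest came without PARIS WT replicate 1 and without PARIS C571A replicate 3, the libraries with the high counts.

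*JYalpha* was at 0 counts in 8 of the 9 TRAP libraries. The exception, TRAP control replicate 2, had 8 counts, or 0.389 CPM. A count of 0 allows up to 3 counts, which is 0.0796 to 0.232 CPM in these libraries, counting error only. The summed level of 25 testis genes differed between the groups. Its mean was 25.7 CPM in PARIS WT, 176 in PARIS C571A and 549 in TRAP control. The part of testis content in the *JYalpha* counts was not tested.

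The beta subunit *nrv2* was highest in PARIS C571A, intermediate in PARIS WT and lowest in TRAP control. It had 43.1, 40.0 and 58.7 CPM in PARIS WT, 70.3, 73.1 and 77.6 CPM in PARIS C571A and 35.4, 30.1 and 39.0 CPM in TRAP control, on the scale of the 9 libraries. The 3 groups did not overlap, although the gap between the lowest PARIS WT library and the highest TRAP control library was small. The log2 fold change was 0.44 (standard error 0.20) in PARIS WT against TRAP control, −0.60 (0.17) in PARIS WT against PARIS C571A and 1.08 (0.15) in PARIS C571A against TRAP control. These comparisons share their libraries, so their values are not independent of each other. Leaving out 1 library at a time kept the sign, with 0.26 to 0.55, −0.79 to −0.51 and 0.99 to 1.17 in the same order of comparisons.

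The means of *nrv3* had the same order with smaller differences. Its levels were 706, 697 and 663 CPM in PARIS WT, 800, 796 and 860 CPM in PARIS C571A and 685, 679 and 538 CPM in TRAP control. PARIS C571A lay above both other groups in every library, while PARIS WT and TRAP control overlapped. The log2 fold change was 0.12 (standard error 0.12) in PARIS WT against TRAP control, −0.21 (0.073) in PARIS WT against PARIS C571A and 0.37 (0.13) in PARIS C571A against TRAP control. With 1 library left out the value for PARIS WT against TRAP control was 0.013 to 0.18.

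*nrv1* was low and variable, and 1 library decided its error. It had 19.9, 13.8 and 15.6 CPM in PARIS WT, 28.6, 0 and 19.8 CPM in PARIS C571A and 35.0, 15.3 and 12.2 CPM in TRAP control. The 0 of PARIS C571A replicate 2 stood where the mean of the other PARIS C571A libraries would give 505 counts at its TMM-scaled library size. That library held 14 genes at 0 that had at least 100 counts in every other TRAP library, and the 9 libraries held 7 to 33 such genes each. The log2 fold change was −0.35 (standard error 0.43) in PARIS WT against TRAP control, 0.063 (1.42) in PARIS WT against PARIS C571A and −0.37 (1.5) in PARIS C571A against TRAP control. Without PARIS C571A replicate 2 the comparisons that include it gave −0.52 and 0.22, and without PARIS WT replicate 1 PARIS WT against PARIS C571A gave −0.10. Without TRAP control replicate 1 PARIS WT and PARIS C571A against TRAP control gave 0.25 and 0.24, so the sign of *nrv1* was not settled in any of the comparisons.

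**Figure D4:**
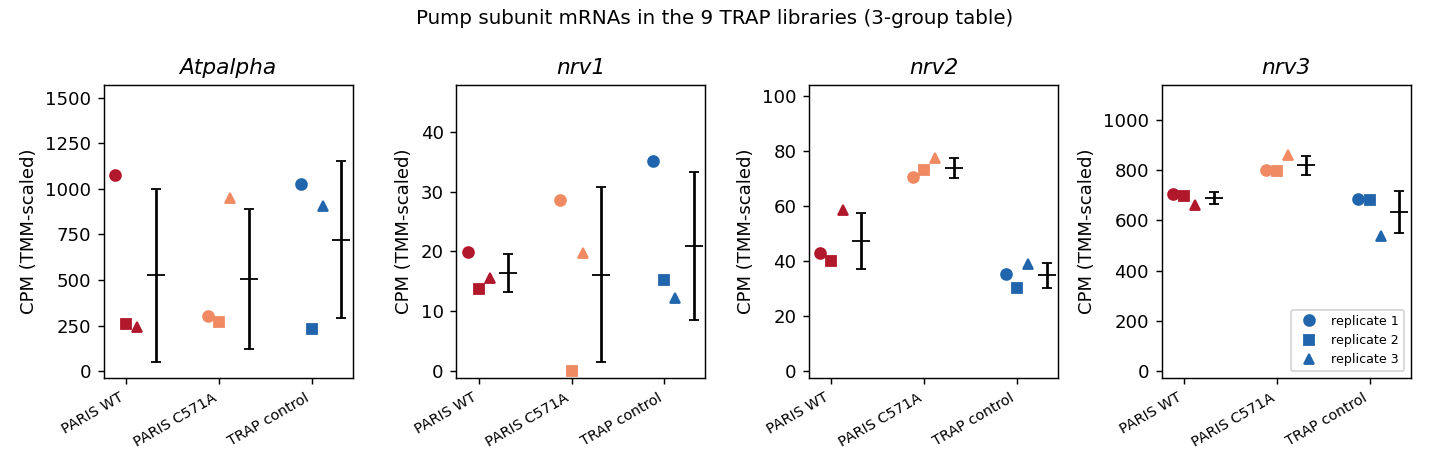
CPM (y axis, TMM-scaled over the 9 TRAP libraries) of *Atpalpha*, *nrv1*, *nrv2* and *nrv3* by group (x axis). Marker shapes stand for replicate numbers and the black bars for the mean ± SD (n = 3), and *nrv2* separates PARIS C571A at 70.3 to 77.6 CPM from TRAP control at 30.1 to 39.0 CPM.

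Of the 5 subunit genes, 4 had enough counts to enter edgeR's quasi-likelihood F-test over all genes, and *JYalpha* was left out of it. At an adjusted p-value of 0.05 (Benjamini-Hochberg over all genes tested), 0 of the 4 were called in PARIS WT against TRAP control, where 0.712% of 9697 genes were called. Between PARIS WT and PARIS C571A 0 of the 4 were called, beside 0.0529% of 9460 genes. In PARIS C571A against TRAP control 0 of the 4 were called, beside 0.17% of 9986 genes. At an unadjusted p under 0.05, 0, 2 and 2 of the 4 passed in the same order of comparisons (*nrv2* and *nrv3* both times), beside 1128, 800 and 982 genes, or 11.6%, 8.46% and 9.83%. DESeq2, the tool of the study's methods, called 739, 329 and 439 genes, or 6.88%, 3.26% and 3.95% of those it gave an adjusted p, and its calls included 0, 1 and 1 of the subunit genes, *nrv2* in both cases.

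Groups that did not overlap were common among all genes. This held for 1 of the 4 subunit genes (*nrv2*) between PARIS WT and TRAP control, beside 21.9% of all genes. In PARIS WT against PARIS C571A it held for *nrv2* and *nrv3*, beside 17.3% of all genes, and in PARIS C571A against TRAP control for the same pair, beside 20.6%. The median log2 fold change of the 4 genes was −0.12, −0.12 and −0.00085 in the order of these comparisons, and that of all genes −0.023, −0.027 and 0.0061.

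The summed level of the glia markers had the same order of groups as *nrv2*. It was 844 to 957 CPM in PARIS WT, 983 to 1100 CPM in PARIS C571A and 718 to 759 CPM in TRAP control, without overlap. Most of this sum was *Gs2*, with a mean of 750 CPM in PARIS WT, 862 CPM in PARIS C571A and 639 CPM in TRAP control. The order was that of 5 of the 9 genes by their means, while *alrm* and *wrapper* were highest and *moody* and *Mdr65* lowest in PARIS WT (named after their values were seen). The median log2 fold change of the 9 glia genes was 0.81 in PARIS WT against TRAP control, −0.35 in PARIS WT against PARIS C571A and 1.00 in PARIS C571A against TRAP control. In the same order of comparisons 7, 2 and 9 of the 9 were positive. The gene *e* (ebony), which encodes a beta-alanyl amine synthase of glia, was the 1 glia gene that edgeR called against TRAP control and is named after its values were seen. It averaged 31.6 ± 3.00 CPM in PARIS WT and 9.23 ± 1.43 CPM in TRAP control (SD, n = 3 each), which is 1.78 on the log2 scale (standard error 0.21, with an adjusted p of 0.0282 by edgeR). Its difference between PARIS C571A and TRAP control was 2.23 (0.20, adjusted p = 0.0221). Against TRAP control DESeq2 called 2 of the 9 glia genes in PARIS WT and 4 in PARIS C571A, *e* among them. Between PARIS WT and PARIS C571A edgeR called 0 of the 9 glia genes, with 2 at an unadjusted p under 0.05 and 0 called by DESeq2.

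The neuron markers had smaller medians. The 10 genes of neurons in general were summed on the scale of the 9 TRAP libraries. They had 1823 to 2437 CPM in PARIS WT, 2441 to 2627 CPM in PARIS C571A and 1862 to 2333 CPM in TRAP control. PARIS C571A thus lay above both other groups, as for *nrv3*. In the counts of PARIS WT and PARIS C571A alone the sums overlapped. They were 1739 to 2373 CPM in PARIS WT and 2369 to 2429 CPM in PARIS C571A. *Syx1A* of this list was at 0 in 1 TRAP library. The median log2 fold change of the 10 genes was −0.011 in PARIS WT against TRAP control, −0.14 in PARIS WT against PARIS C571A and 0.18 in PARIS C571A against TRAP control. The 9 genes of neurons other than DA neurons, such as transmitter synthesis genes, summed to 585 to 636 CPM in PARIS WT, 674 to 728 CPM in PARIS C571A and 411 to 530 CPM in TRAP control, an order without overlap that *nrv2* also had. Their median log2 fold changes were 0.41, −0.021 and 0.65 in the same order of comparisons, with 8, 4 and 7 of the 9 positive. The part of glial or neuronal content in the values of *nrv2* and *nrv3* was not tested.

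**Figure D5:**
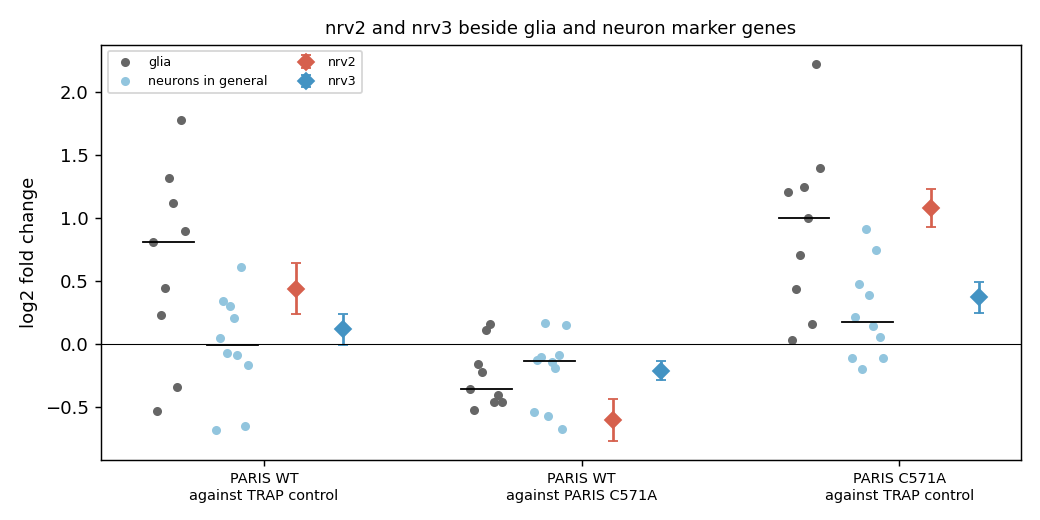
Log2 fold change (y axis) in the 3 comparisons between TRAP groups (x axis) for 9 glia genes and 10 genes of neurons in general (points, black bars at the list medians) and for *nrv2* and *nrv3* (diamonds, with standard error). In PARIS C571A against TRAP control *nrv2* is at 1.08 and the glia median at 1.00. In PARIS WT the values are 0.44 and 0.81 against TRAP control and −0.60 and −0.35 against PARIS C571A. The *nrv3* value of 0.37 in PARIS C571A against TRAP control lies within the range of the neuron genes and also of the glia genes.

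Across the 9 TRAP libraries *nrv2* and *nrv3* had a Pearson correlation of log2 CPM of 0.70, and the other pairs of subunit genes lay between −0.38 and 0.34. These correlations are descriptive, since the libraries share groups and differ in depth. The genes most like *nrv2* were *CG8668* (r = 0.95), *Agpat4* (0.94) and *htl* (0.94), which encodes a fibroblast growth factor receptor. *htl* averaged 4.72 CPM in PARIS WT, 8.90 in PARIS C571A and 1.94 in TRAP control. The genes most like *nrv3* were *spoon* (0.98), *Syn* (0.98), which encodes the synaptic vesicle protein synapsin and is 1 of the neuron markers, and *Tob* (0.96), out of 6518 genes compared. For *Atpalpha* they were *CG5854* (0.89), *ben* (0.88) and *Nlg2* (0.88), a neuroligin gene. For *nrv1* they were *CG42507* (0.98), *mRpL24* (0.97) and *CG3999* (0.97), but without PARIS C571A replicate 2 these were 0.078, 0.53 and −0.095. Every *Atpalpha* correlation here used its 3-group counts. In 4 libraries these differed from the counts of PARIS WT and PARIS C571A alone, and *ben* also had other counts there.

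In edgeR's test no other gene on the lists of ion transport and septate junction genes passed the threshold between TRAP groups. In each of the 3 comparisons, edgeR called 0 of 5 other ion pumps, 0 of 9 cation exchangers and cotransporters, 0 of 8 sodium channel genes and 0 of 17 septate junction genes. At an unadjusted p under 0.05, 2, 5 and 2 of these 39 genes passed in PARIS WT against TRAP control, PARIS WT against PARIS C571A and PARIS C571A against TRAP control, where 11.6%, 8.46% and 9.83% of all genes passed. DESeq2 called 0, 1 and 1 of them, *Nckx30C* and *NaCP60E*, beside 6.88%, 3.26% and 3.95% of all genes. The list medians of the log2 fold change lay between −0.19 and 0.22.

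Between PARIS WT and TRAP control the smallest adjusted p-values of the lists belonged to *vari* and *Nrg*, which encode septate junction components. *vari* averaged 30.4 ± 4.35 CPM in PARIS WT and 14.0 ± 6.58 CPM in TRAP control (log2 fold change 1.11, standard error 0.39, adjusted p = 0.314 from edgeR), and *Nrg* averaged 84.6 ± 17.0 and 122 ± 14.8 CPM in the same order (−0.53, 0.19, adjusted p = 0.322). Among the sodium channels *NaCP60E* averaged 194 ± 34.3 CPM in PARIS WT and 251 ± 27.2 CPM in TRAP control (adjusted p = 0.465). These differences did not pass the threshold.

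Between PARIS WT and PARIS C571A the lowest was *Nckx30C*, at 381 ± 28.4 CPM in PARIS WT and 496 ± 14.2 CPM in PARIS C571A (log2 fold change −0.38, standard error 0.087, adjusted p = 0.272 from edgeR). *Teh4*, an auxiliary subunit gene of the sodium channel, averaged 8.51 ± 1.99 CPM in PARIS WT and 14.2 ± 1.35 CPM in PARIS C571A (−0.73, 0.27, adjusted p = 0.528). The septate junction gene *bark* averaged 10.9 ± 3.67 CPM in PARIS WT and 5.18 ± 1.12 CPM in PARIS C571A (1.07, 0.37, adjusted p = 0.498). In PARIS C571A against TRAP control the lowest was *NaCP60E* at 195 ± 12.5 CPM in PARIS C571A and 255 ± 28.6 CPM in TRAP control (−0.39, 0.13, adjusted p = 0.384), followed by *vari* (1.08, 0.41, adjusted p = 0.468). None of these passed the threshold.

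The 4 relatives of the subunit genes that could be matched, *CG45062*, *CG5250*, *CG11703* and *CG33310*, were nearly absent. Together they had 0.773 to 2.19 CPM in PARIS WT, 0.199 to 2.18 CPM in PARIS C571A and 1.19 to 4.57 CPM in TRAP control. Only *CG33310* entered the test, and it was not called in any comparison.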

How the data were processed

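TRAP-seq libraries (3 PARIS WT, 3 PARIS C571A, 3 TRAP control) and 1 total mRNA library of whole brain were used. The authors aligned reads with HISAT2 2.1.0 and estimated abundances with StringTie 2.0 on the BDGP6.28 annotation. The 5 deposited tables hold estimated counts per gene as whole numbers and are not normalized. Entries that name no gene (at most 0.0209% of a library) were left out. Groups were taken from the sample titles. The members and gene lists were chosen with earlier results of these data known. Named genes were the 5 members, their relatives, in each ion transport or septate junction list those called and up to 3 with the smallest p, and the 3 genes most correlated with each member among genes with a mean of at least 50 counts and no 0.

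Each comparison used the table of its own groups. Genes were filtered with filterByExpr (minimum count 10, total 15), scaled by TMM and tested by the quasi-likelihood F-test of edgeR 4.0.16 in R 4.3.3, with a threshold of 0.05. The scripts were tested on simulated data. Ratios to whole brain used a prior count of 1. Precision is the spread between libraries (SD or standard error, n = 3), described in the protocols as independent biological samples. Symbols and positions came from Ensembl's BDGP6.54 (17650 of 17747 identifiers matched) and sequences from the RefSeq release 6 genome. Alternatives were DESeq2 1.42.0, other scalings, filters, prior counts and lengths, a robust fit, 1 fit over all 3 groups, a replicate block and leaving out each library. Plots were drawn with matplotlib 3.10.9. Marker lists for glia, muscle, fat body, testis, photoreceptors and 3 neuron classes (all, DA and non-DA) were summed as CPM.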

Additional observations from a re-analysis of the deposited data

How the results depend on the processing

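Over all alternatives, 170 of 181 log2 fold changes of subunit genes kept their sign and side of the threshold, 9 changed sign and 2 passed the threshold (both *nrv2* with DESeq2). The sign changes concerned *Atpalpha* in PARIS WT against PARIS C571A (0.053 in 1 fit over all 3 groups, 0.093 with the counts of the 3-group table, −0.17 to 0.037 with 1 library left out) and *nrv1* with 1 library left out (−0.62 to 0.25 in PARIS WT against TRAP control, −0.52 to 0.77 in PARIS WT against PARIS C571A, −1.06 to 0.24 in PARIS C571A against TRAP control). DESeq2 called 1 subunit gene, *nrv2*, in PARIS WT against PARIS C571A and 1, *nrv2*, in PARIS C571A against TRAP control.

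The count of all genes called moved more. Between PARIS WT and TRAP control it was 739 with DESeq2 and 13 to 44 with 1 library left out. Between PARIS WT and PARIS C571A it was 329 with DESeq2, 18 with a robust fit, 35 with all 3 groups in 1 fit, 2 with the counts of the 3-group table, 3 without the genes that differ between tables (an alternative chosen after seeing the data) and 0 to 23 with 1 library left out. In PARIS C571A against TRAP control it was 439 with DESeq2, 28 with a robust fit, 8 without the genes that differ between tables and 3 to 18 with 1 library left out. With the replicate number as a block, 2, 0 and 0 genes were called in these comparisons; same-numbered libraries had correlations of −0.044 to 0.058 in their deviations, so the numbers gave no sign of pairing. The cause of these differences was not tested.

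With library size alone, the log2 ratio to whole brain in TRAP control was −0.79 for *Atpalpha*, −3.55 for *nrv1*, −4.28 for *nrv2* and −0.088 for *nrv3*. That of *Atpalpha* was −0.078 to 1.01 with 1 library left out. With the length of the longest transcript, the *nrv2* share was 10.2% in PARIS WT, 13.1% in PARIS C571A, 8.36% in TRAP control and 50.9% in whole brain. The *nrv3* share was then 85.5% in PARIS WT and 29.0% in whole brain, and the *nrv1* share 20.1% in whole brain. *JYalpha* had at most 8 counts in any library, too few for a fold change.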

Other observations

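By their list medians in TRAP control against whole brain, muscle and fat body genes lay below the median of all genes (−0.45). Testis genes lay above it and photoreceptor genes close to it. All 10 muscle genes were below 0, with a median log2 ratio of −1.86, and their summed level was 851 to 901 CPM in TRAP control and 2790 CPM in whole brain. Of 6 fat body genes 5 were below 0 (median −1.42) and of 11 photoreceptor genes 8 (median −0.42). Of 23 testis genes 18 were above 0 (median 1.07).

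Between the TRAP groups, the 5 DA neuron genes averaged a summed 477 CPM in PARIS WT, 494 CPM in PARIS C571A and 497 CPM in TRAP control. In the counts of PARIS WT and PARIS C571A alone they averaged 520 CPM in PARIS WT and 512 CPM in PARIS C571A, the other order. *DAT* of this list had other counts there, with means of 65.1 CPM in PARIS WT and 44.7 CPM in PARIS C571A. With TRAP control included its means were 24.1 CPM in PARIS WT and 16.6 CPM in PARIS C571A. Photoreceptor genes averaged 13341 CPM in PARIS WT, 15696 CPM in PARIS C571A and 14360 CPM in TRAP control, muscle genes 773, 794 and 724 CPM and fat body genes 14743, 15618 and 13171 CPM in the same order of groups.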
